A study of Mus musculus with 9 samples.

Results

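The genes described here encode the initiation and elongation factors of translation, with the enzymes and binding proteins named after them, in mouse testicular peritubular myoid cells at rest and after heat. They were taken by name: every gene with values whose symbol starts with Eif1 to Eif6, Eef1 or Eef2, which gave 65 genes of the 17559 with values. No measured value entered that choice. The cells were a primary culture of peritubular myoid cells, the contractile cells that wrap the seminiferous tubules, from C57BL/6J testis, grown at 37 °C in serum-containing medium. The 9 RNA-seq libraries form 3 groups of 3: unheated control cells, cells collected 1 h after a 30 min bath at 42 °C, and cells collected 6 h after the same bath. No genetic change or drug is named in any group, and the labels do not say whether replicates came from separate animals or dishes, so a p-value here reflects how far these libraries differ from each other, which could be technical in origin. The series asks how heat acts on these cells.

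Translation starts when eIF2, carrying the initiator tRNA, joins the small ribosomal subunit with eIF1, eIF1A, eIF3 and eIF5, while eIF4F (the cap-binding eIF4E, the scaffold eIF4G and the helicase eIF4A) prepares the mRNA. Elongation then runs on eEF1A, which brings aminoacyl-tRNA, and eEF2, which moves the ribosome along. Stress acts on this machinery mostly through phosphorylation: eIF2α kinases block the recharging of eIF2 by eIF2B, 4E-BP proteins hold eIF4E back when mTOR is off, and eEF2 kinase stops eEF2. None of these protein changes can be seen in RNA levels. Many of these mRNAs, like those of ribosomal proteins, start with a run of pyrimidines (a terminal oligopyrimidine tract), through which their translation is controlled together.

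Levels are FPKM, that is, fragments relative to the length of the transcript and to all mapped fragments of that library. The table gives no read counts, and depth was not estimated. They summed to 433744 to 536932 per library over all genes. Hspa1a, an inducible HSP70 chaperone, was at 1228, 1794 and 1513 FPKM in the 1 h libraries, against 10.2, 12.3 and 6.92 FPKM in the control libraries (log2 change 7.14 (SE 0.26, limma adjusted p = 3.65e-06)). The myoid markers Acta2, Myh11, Des, Cnn1 and Tagln were present in every library, with a summed level of 2645 to 3891 FPKM. Markers of other testis cells were present too: the summed level of 10 Sertoli cell markers was 3142 FPKM in control 3 and 301 to 584 FPKM in the other 8 libraries, that of 8 Leydig cell markers 872 to 2139 FPKM, that of 8 macrophage markers 30.6 to 268 FPKM, that of 5 endothelial markers 17.8 to 46.5 FPKM and that of 6 germ cell markers 1.11 to 8.30 FPKM. The Leydig genes Insl3, Cyp11a1 and Star ran at 181 to 1607, 288 to 819.8 and 42.2 to 211 FPKM and the Sertoli genes Clu and Gata4 at 175 to 2700.02 and 50.2 to 83.4 FPKM, while Fshr (Sertoli) was at 0 to 0.0900 FPKM and Cyp17a1 (Leydig) at 0 to 0.110 FPKM. Of the 7 Sertoli markers tested, Clu, Cldn11, Wt1 and Sox9 were highest in control 3, at 2700.02, 237, 53.8 and 27.7 FPKM. Gata4, Inhbb and Krt18 were not, at 79.9, 38.6 and 3.27 FPKM there. In the control libraries Insl3 was at 1607, 1587 and 181 FPKM, Cyp11a1 at 346, 387 and 452 FPKM and Star at 106, 42.2 and 211 FPKM. Against control, the 6 macrophage markers tested were all above 0 at 1 h and at 6 h, with median log2 changes of 1.08 and 1.16, and the 5 myoid markers all below 0, with medians of -0.55 and -0.37. None of these 11 genes had a limma adjusted p below 0.05, and their part in the results was not tested. In such bulk libraries fewer cells of a type and less RNA per cell cannot be told apart. Control 3 and 6 h replicate 2 also stood apart in the ribosomal protein genes, whose median of 80 genes was 779, 855 and 481 FPKM in the control libraries, 731, 734 and 679 FPKM at 1 h and 699, 1199 and 853 FPKM at 6 h. Where leaving out control 3, 6 h replicate 2 or both moved a log2 change given for a member by over 1.5 times, that value is printed too.

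Translation factor transcripts were abundant. The median over the 65 genes of the mean FPKM of 9 libraries was 61.7, against 10.7 for the 11460 genes that reached 1 FPKM in 3 or more libraries, and 54 genes were above 10 FPKM in every library and 14 above 100 FPKM. All 65 together made up 1.97% to 2.65% of the FPKM of a library. Eef1a1, the eEF1A of most tissues (NCBI gene 13627, chr9:78478453-78481724, minus strand, mm10), had the highest mean of all genes tested, 4079 FPKM, and alone held 0.669% to 1.12% of a library. Its muscle and nerve counterpart Eef1a2 was at 0.280, 0.300 and 0.330 FPKM in the control libraries, 0.820, 0.740 and 0.400 FPKM at 1 h and 0.300, 0.650 and 0.350 FPKM at 6 h. Eef1a2 and the oocyte cap-binding gene Eif4e1b, with means of 0.463 and 0.194 FPKM, were the only members that did not pass the filter of 1 FPKM in 3 libraries, so 63 were tested.

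**Figure D1:**
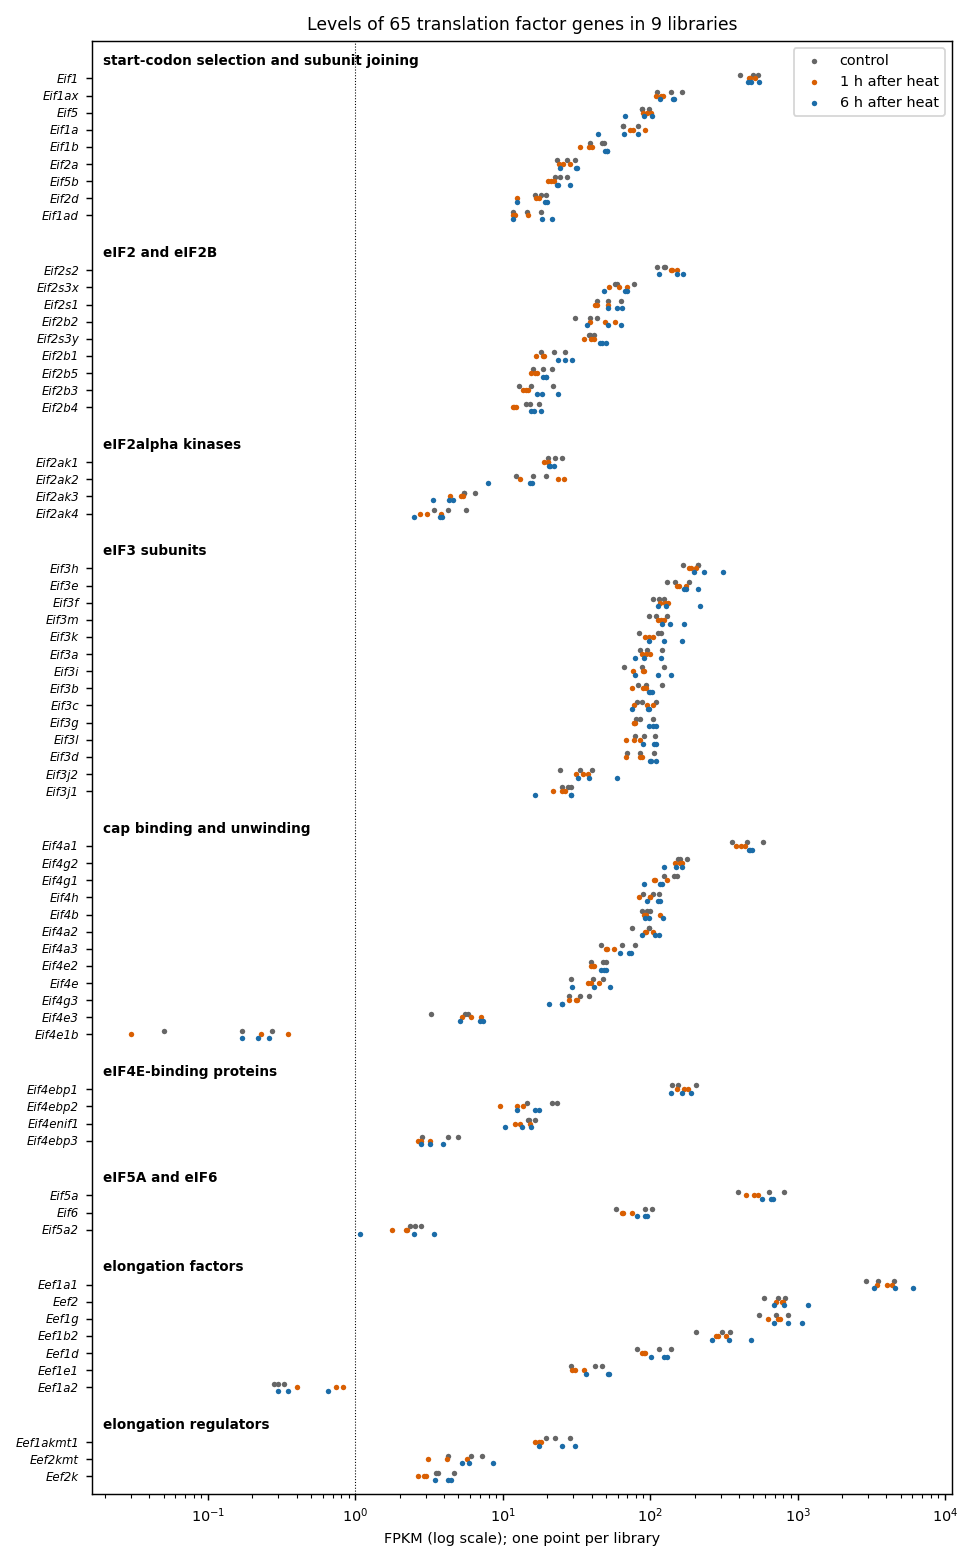
FPKM of the 65 translation factor genes in each of 9 libraries on a log axis, grouped by role, with 1 point per library coloured by group and a dotted line at 1 FPKM. Of the genes, 54 lie above 10 FPKM in every library, Eef1a1 lies to the right of all others, and Eef1a2 and Eif4e1b lie below 1 FPKM.

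Levels differed between roles, and the highest mean of a role was 5.79 times (eIF2α kinases) to 8803 times (elongation factors) its lowest. The eIF3 subunits, parts of the scaffold that binds the small subunit, had means of 25.5 FPKM (Eif3j1) to 212 FPKM (Eif3h), with a median of 95.5 FPKM over 14 genes. The 7 elongation factor genes had a median of 315 FPKM. The 4 kinases of eIF2α were low, with means of 3.68 FPKM (Eif2ak4) to 21.3 FPKM (Eif2ak1), and the enzymes that act on elongation factors lay between 3.62 FPKM (Eef2k) and 21.9 FPKM (Eef1akmt1). The order at the top was Eef1a1, Eef2 (789 FPKM), Eef1g (764 FPKM), Eif5a (581 FPKM), Eif1 (489 FPKM) and Eif4a1 (452 FPKM). Eef2 and Eef1g, neighbours in that order, overlapped in their library values, as did Eif1 and Eif4a1. Most genes varied little: in 49 of the 63 tested genes the highest of the 9 libraries was under 2 times the lowest, and Eif4e2 varied least, by 1.28 times.

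At 1 h after heat no translation factor gene passed the test. With an adjusted p under 0.05, 0 of 63 were higher and 0 lower, where among all 11460 genes 0.157% were called higher (18 genes) and 0.0% lower (limma on log2(FPKM + 1), Benjamini-Hochberg over all genes). Before adjustment p was under 0.05 for 0 higher and 2 lower members, Eif4ebp2 and Eif2b4, against 2.76% and 8.05% of all genes. The smallest adjusted p was 0.375, for Eif4ebp2. The median log2 change of the 63 genes was -0.15, with 19 above 0 and 44 below, and that of all genes tested was -0.17, with 23.8% above 0 and 76.2% below. With libraries scaled by the median of ratios these medians became 0.03 and -0.01. Changes at 1 h are to be read against that shift of the whole table. The libraries did not overlap in 1 member that was higher, Eif2s2, and 8 that were lower (Eif4ebp2, Eef1akmt1, Eif2b4, Eef2k, Eif5a2, Eif3g, Eif5b and Eif2ak3), 1.59% and 12.7% of members, against 4.49% and 21.4% of all genes. After the scaling the split was 8 higher (Eif5, Eif4b, Eef2, Eif4a2, Eif3f, Eif2s2, Eif4e3 and Eif2b2) and 2 lower (Eif2b4 and Eef2k), against 9.03% and 7.02% of all genes. Where groups of a gene are said below to overlap, unscaled FPKM is meant unless scaling is named.

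At 6 h after heat the count of called members was again 0 higher and 0 lower, and among all genes 0.0% were called in either direction, although Hspa1a was still at 49.3, 27.1 and 40.4 FPKM in the 6 h libraries, against 10.2, 12.3 and 6.92 FPKM in the control libraries. Before adjustment, 0 higher and 3 lower members were under 0.05, Eif4g3, Eif2ak3 and Eif4g1, against 1.27% and 3.35% of all genes. These 3 were also the ones whose libraries did not overlap in the lower direction (all genes 5.32%), and Eif1b and Eif2s3y did not overlap in the higher one (all genes 1.89%). After the scaling these 3 and 2 genes were still apart, against 4.28% and 3.04% of all genes. The median log2 change was 0.10 for the 63 genes, with 43 above 0 and 20 below, and -0.06 for all genes, with 39.9% above 0 and 60.1% below. Without control 3 the members' median was -0.02, and without control 3 and 6 h replicate 2 together it was -0.0020.

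Between 6 h and 1 h, which shares its libraries with the other comparisons, 0 members were called higher and 0 lower, against 0.0% and 0.279% of all genes (32 genes, all lower). Without adjustment 8 members were higher (Eif2b4, Eif2b1, Eif1b, Eif3g, Eef1e1, Eef2k, Eif3l and Eif2s3y) and 1 lower, Eif4g3, at a p under 0.05, against 8.45% and 3.19% of all genes. The smallest adjusted p was 0.260, for Eif2b4. Library values did not overlap in 20 higher members, 31.7% against 15.2% of all genes, and in 1 lower member, Eif4g3, against 4.97%. After scaling by the median of ratios the split was 13 higher and 3 lower, Eif4g3, Eif2ak3 and Eif4g2, with 9.0% and 9.09% of all genes. The median log2 change was 0.22 over the members, with 50 above 0 and 13 below, and 0.09 over all genes, with 62.9% above 0 and 37.1% below.

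**Figure D2:**
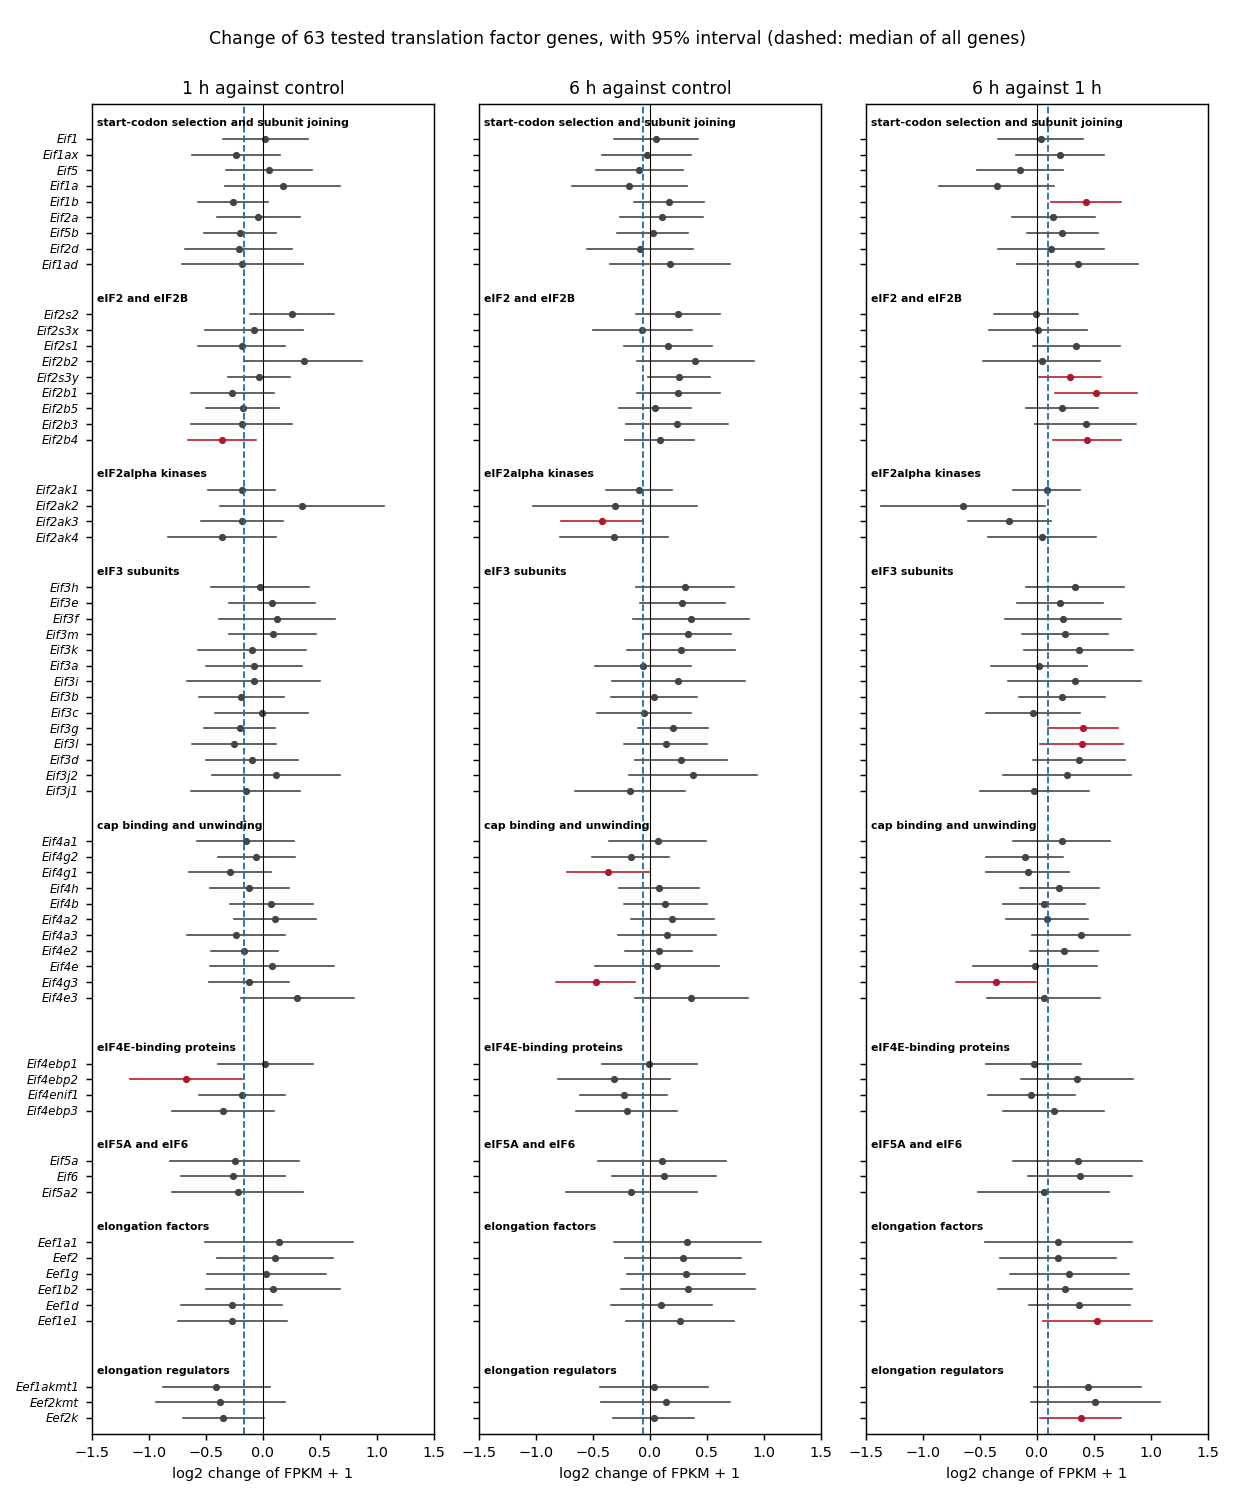
Log2 change of FPKM + 1 with its 95% interval for 63 translation factor genes in the 3 comparisons, grouped by role, with red for an unadjusted p below 0.05, a solid line at 0 and a dashed line at the median of all genes tested. No point reaches a log2 change of 1, none passes an adjusted p of 0.05, and at 1 h most points lie around the dashed line at -0.17.

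The intervals give the size of change these libraries could still hold. At 1 h the 95% interval of 61 of 63 genes lay within a log2 change of 1 in either direction, the exceptions being Eif2ak2 and Eif4ebp2. At 6 h against control it did so for 62 genes, all but Eif2ak2, and at 6 h against 1 h for 60, all but Eef1e1, Eef2kmt and Eif2ak2. The median half-width was 0.419, and the range ran from 0.274 for Eif2s3y to 0.720 for Eif2ak2. No member had an estimated log2 change of 1 or more in any comparison, while among all genes 2.02% were higher and 0.654% lower by that much at 1 h, 0.96% and 0.454% at 6 h, and 0.401% and 1.53% between 6 h and 1 h.

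The factors that select the start codon and join the subunits held 9 genes, of which 0 were called in any comparison. Eif1, the gene for eIF1, which guards start codon choice, was at 499, 542 and 406 FPKM in the control libraries, 466, 477 and 518 FPKM at 1 h and 549, 462 and 485 FPKM at 6 h. Its groups overlapped, with control 3 the lowest library. Eif5, whose product triggers GTP hydrolysis on eIF2, was at 87.5, 98.8 and 88.3 FPKM in the control libraries, 89.5, 101 and 94.9 FPKM at 1 h and 103, 67.6 and 90.5 FPKM at 6 h, and 6 h replicate 2 was the only library below 80 FPKM. Eif1a, which like Eif1ax encodes eIF1A, a partner of eIF1 in scanning, was at 65.4, 82.9 and 65.1 FPKM in the control libraries, 72.5, 91.5 and 76.7 FPKM at 1 h and 82.2, 44.3 and 66.5 FPKM at 6 h. The same 6 h replicate was again lowest, and the log2 change between 6 h and 1 h was -0.35 (SE 0.22, limma adjusted p = 0.572), or -0.11 without that library. Eif1b, the close relative of Eif1, was named after its values were seen. It was at 47.3, 48.6 and 38.8 FPKM in the control libraries, 39.97, 33.5 and 38.3 FPKM at 1 h and 50.9, 50.6 and 49.4 FPKM at 6 h, so that all 3 libraries at 6 h were above all other 6, with a log2 change of 0.43 (SE 0.14, limma adjusted p = 0.292) between 6 h and 1 h.

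Of the 9 genes of eIF2 and its exchange factor eIF2B, 0 were called, with a median log2 change of -0.18 at 1 h, 0.24 at 6 h and 0.29 between 6 h and 1 h, against -0.17, -0.06 and 0.09 for all genes. Under the median-of-ratios scaling the first was -0.01 and the third 0.17, with 6 genes above 0 and 3 below in place of 8 and 1. Without control 3 the second was 0.08, and the first -0.28. Eif2s1, the α subunit that stress kinases phosphorylate, was at 51.9, 63.03 and 43.5 FPKM in the control libraries, 42.3, 51.9 and 43.6 FPKM at 1 h and 59.6, 51.8 and 64.6 FPKM at 6 h. The groups overlapped. Eif2s2, the β subunit, was at 126, 124 and 111 FPKM in the control libraries, 141, 152 and 138 FPKM at 1 h and 167, 115 and 153 FPKM at 6 h. All 1 h libraries were above all control libraries, while 6 h replicate 2 lay within the control range, and the log2 change at 1 h was 0.26 (SE 0.16, limma adjusted p = 0.545). The ratio of Eif2s2 to Eif2s1 was 2.93 to 3.33 at 1 h, against 1.97 to 2.56 in control and 2.21 to 2.80 at 6 h. The γ subunit has a gene on each sex chromosome in mouse. Eif2s3x had mean levels of 64.9 ± 11.4 FPKM in control, 61.2 ± 8.33 at 1 h and 62.1 ± 11.48 at 6 h (SD, n = 3 each). Eif2s3y, named after its values were seen, was at 46.9, 50.1 and 46.0 FPKM in the 6 h libraries, against 35.6, 41.4 and 39.4 FPKM in the 1 h libraries, with a log2 change of 0.29 (SE 0.12, limma adjusted p = 0.404), and both genes were expressed in every library.

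The eIF2B subunits form the exchange factor that recharges eIF2 with GTP. Eif2b1, the α subunit (NCBI gene 209354, chr5:124570214-124579131, minus strand), was at 22.4, 26.2 and 18.3 FPKM in the control libraries, 16.8, 18.9 and 18.8 FPKM at 1 h and 29.5, 23.6 and 26.5 FPKM at 6 h. Every 6 h library was above every 1 h library, with a log2 change of 0.52 (SE 0.16, limma adjusted p = 0.279). Eif2b4, the δ subunit (NCBI gene 13667, chr5:31187558-31193139, minus strand; named after its values were seen), was at 14.3, 17.5 and 15.3 FPKM in the control libraries, 11.8, 11.9 and 12.2 FPKM at 1 h and 18.1, 15.6 and 16.3 FPKM at 6 h. The 1 h libraries were the 3 lowest of the 9, and the groups at 6 h and in control overlapped. Its log2 change was -0.36 (SE 0.13, limma adjusted p = 0.426) at 1 h and 0.44 (SE 0.13, limma adjusted p = 0.26) between 6 h and 1 h. Eif2b2, the β subunit, was at 39.1, 43.5 and 30.7 FPKM in the control libraries, 39.0, 58.0 and 49.3 FPKM at 1 h and 63.3, 37.5 and 51.5 FPKM at 6 h. Control 3 was the lowest library and the groups overlapped, with log2 changes of 0.36 (SE 0.23, limma adjusted p = 0.545) at 1 h and 0.40 (SE 0.23, limma adjusted p = 0.877) at 6 h. Without control 3 these were 0.22 and 0.26.

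The 4 kinases that phosphorylate eIF2α sense different stresses. Of their transcripts 0 were called, 1 was above 0 and 3 below at 1 h, and all 4 were below 0 at 6 h, with a median log2 change of -0.31 at 6 h, against -0.06 for all genes. That median was -0.16 without control 3 and -0.13, with 1 above 0 and 3 below, without control 3 and 6 h replicate 2 together. Eif2ak1 encodes the heme-sensing kinase HRI, which also answers to other cytosolic stress, and was at 22.7, 20.3 and 25.4 FPKM in the control libraries, 18.9, 20.4 and 20.3 FPKM at 1 h and 22.4, 20.4 and 20.9 FPKM at 6 h. Control overlapped with both heated groups. The 6 h libraries were just above the 1 h libraries, with a lowest of 20.44 FPKM against a highest of 20.41 FPKM, and overlapped with them after scaling. Eif2ak2 encodes PKR, the kinase activated by double-stranded RNA, and was at 16.0, 12.2 and 19.5 FPKM in the control libraries, 26.2, 23.5 and 13.0 FPKM at 1 h and 7.95, 15.3 and 15.7 FPKM at 6 h. It had the widest interval of the tested members, with 1 h replicates 1 and 2 highest and 6 h replicate 1 lowest, and every group overlapped with the others. Its log2 change was 0.34 (SE 0.32, limma adjusted p = 0.652) at 1 h and -0.65 (SE 0.32, limma adjusted p = 0.474) between 6 h and 1 h, the second being -0.35 without 6 h replicate 1. Eif2ak3, the gene for PERK, the kinase of the endoplasmic reticulum, was at 5.44, 5.49 and 6.45 FPKM in the control libraries, 4.38, 5.18 and 5.40 FPKM at 1 h and 4.59, 3.37 and 4.30 FPKM at 6 h. All 6 h libraries were below all control libraries, with a log2 change of -0.42 (SE 0.16, limma adjusted p = 0.877), or -0.25 without control 3 and 6 h replicate 2. Between 6 h and 1 h the log2 change was -0.24 (SE 0.16, limma adjusted p = 0.593), or -0.13 without 6 h replicate 2. Eif2ak4 encodes GCN2, the sensor of uncharged tRNA, and was at 3.42, 4.27 and 5.66 FPKM in the control libraries, 3.05, 3.82 and 2.76 FPKM at 1 h and 3.77, 2.48 and 3.87 FPKM at 6 h. The groups overlapped, and the log2 change at 1 h was -0.36 (SE 0.21, limma adjusted p = 0.522), or -0.21 without control 3.

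The 14 eIF3 genes had a median log2 change of -0.08 at 1 h, 0.26 at 6 h and 0.26 between 6 h and 1 h, and 0 were called. At 1 h the median turned to 0.10 with the median-of-ratios scaling. At 6 h against control it was 0.09 without 6 h replicate 2, 0.13 without control 3 and 0.08 without both. Between 6 h and 1 h it was 0.16 without 6 h replicate 2 and 0.14 with the scaling. Without control 3 the median at 1 h was -0.14. Eif3h was at 209.9, 211 and 167 FPKM in the control libraries, 190.2, 204 and 182 FPKM at 1 h and 197, 312 and 231 FPKM at 6 h. Control 3 was the lowest and 6 h replicate 2 the highest library. Eif3f (NCBI gene 66085, chr7:108934415-108941942, plus strand) was at 116, 123 and 104 FPKM in the control libraries, 127, 132 and 117 FPKM at 1 h and 113, 218 and 128 FPKM at 6 h, and its log2 change at 6 h was 0.36 (SE 0.23, limma adjusted p = 0.877). Here 6 h replicate 2 alone stood high, and without it the log2 change was 0.08, and without control 3 as well 0.02. Eif3g and Eif3l, named after their values were seen, were higher at 6 h than at 1 h in every library. After the median-of-ratios scaling this still held for Eif3g, while the libraries of Eif3l overlapped. Eif3g was at 109, 98.5 and 104 FPKM in the 6 h libraries, against 78.8, 77.1 and 77.9 FPKM in the 1 h libraries (log2 change 0.41 (SE 0.14, limma adjusted p = 0.313)). Eif3l was at 89.5, 109 and 106 FPKM in the 6 h libraries, against 77.5, 85.1 and 68.6 FPKM in the 1 h libraries (log2 change 0.39 (SE 0.16, limma adjusted p = 0.402)). Eif3j2, a near copy of Eif3j1, was at 33.2, 40.5 and 24.2 FPKM in the control libraries, 31.5, 37.6 and 35.2 FPKM at 1 h and 59.8, 32.2 and 38.3 FPKM at 6 h. Its groups overlapped, 6 h replicate 1 was highest, and the log2 change at 6 h was 0.38 (SE 0.25, limma adjusted p = 0.877), or 0.13 without that library and 0.19 without control 3.

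Among the cap-binding and unwinding factors the 3 scaffold genes of the eIF4G family were lower at 6 h than in control by their means. The cap-binding genes Eif4e, Eif4e2 and Eif4e3 were not, but control 3 was the lowest control library of each. Eif4e was at 41.1 and 47.8 FPKM in controls 1 and 2, with a 6 h mean of 41.5 FPKM. Eif4e2 was at 47.9 and 50.4 FPKM there, with a 6 h mean of 48.3 FPKM. For both genes the contrast rests on control 3, and only Eif4e3 stayed higher without it. The 11 genes tested in this role had a median log2 change of 0.08 at 6 h against control, with 8 above 0 and 3 below. Without control 3 that median was -0.05, with 3 above 0 and 8 below. Eif4g3 (NCBI gene 230861, chr4:137993456-138207079, plus strand), which encodes an eIF4G scaffold, was at 33.4, 28.1 and 38.7 FPKM in the control libraries, 31.5, 28.3 and 31.6 FPKM at 1 h and 25.1, 20.6 and 25.2 FPKM at 6 h. All 6 h libraries were below all others, with log2 changes of -0.48 (SE 0.16, limma adjusted p = 0.877) against control and -0.36 (SE 0.16, limma adjusted p = 0.42) against 1 h. Without control 3 and 6 h replicate 2 together, the first was -0.27. Eif4g1, the major scaffold, was at 125, 152 and 145 FPKM in the control libraries, 108, 129 and 107 FPKM at 1 h and 119, 91.3 and 116 FPKM at 6 h. All 6 h libraries were below all control libraries, while 1 h and 6 h overlapped, and the log2 change at 6 h was -0.37 (SE 0.16, limma adjusted p = 0.877), or -0.22 without control 3 and 6 h replicate 2. Eif4g2, the related scaffold that does not bind eIF4E, had means of 163 ± 12.6 FPKM in control, 156 ± 8.62 at 1 h and 146 ± 21.1 at 6 h (SD, n = 3 each). Its groups overlapped, and 6 h replicate 2 was its lowest library at 123 FPKM.

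Eif4e, the gene for the cap-binding protein, was at 41.1, 47.8 and 28.9 FPKM in the control libraries, 39.4, 44.9 and 38.0 FPKM at 1 h and 53.7, 29.3 and 41.5 FPKM at 6 h, and control 3 and 6 h replicate 2 were the lowest libraries of a range shared by all groups. Eif4e3, a less abundant relative, was at 5.52, 5.84 and 3.28 FPKM in the control libraries, 6.08, 5.28 and 7.06 FPKM at 1 h and 7.36, 6.95 and 5.13 FPKM at 6 h. Control 3 was the lowest library and the groups overlapped, with log2 changes of 0.30 (SE 0.22, limma adjusted p = 0.58) at 1 h and 0.36 (SE 0.22, limma adjusted p = 0.877) at 6 h. Without control 3 these were 0.09 and 0.15, and without 6 h replicate 2 as well the second was 0.10. Eif4a1, the main RNA helicase of initiation, was at 454, 582 and 359 FPKM in the control libraries, 414, 437 and 384 FPKM at 1 h and 471, 478 and 486 FPKM at 6 h. Its relative Eif4a2 was at 98.4, 75.2 and 97.7 FPKM in the control libraries, 93.4, 92.4 and 105 FPKM at 1 h and 114, 88.6 and 108 FPKM at 6 h. Before scaling neither gene separated the heated groups from control, and their ratio of 3.66 to 7.74 was widest within the control group. After the median-of-ratios scaling all 1 h libraries of Eif4a2 were above all control libraries.

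The eIF4E-binding proteins held the largest estimated change at 1 h. Eif4ebp2 (NCBI gene 13688, chr10:61432497-61452669, minus strand), the gene for 4E-BP2, was at 14.5, 21.6 and 23.2 FPKM in the control libraries, 13.7, 12.4 and 9.58 FPKM at 1 h and 16.5, 12.4 and 17.6 FPKM at 6 h. All 1 h libraries were below all control libraries, though control 1 was within 1 FPKM of the nearest 1 h library. The mean was 11.9 ± 2.10 FPKM at 1 h, against 19.8 ± 4.64 FPKM in control (SD, n = 3 each), a log2 change of -0.67 (SE 0.22, limma adjusted p = 0.375) with a 95% interval of -1.17 to -0.18. Over the alternatives it was -0.87 to -0.51, with a lowest limma adjusted p of 0.216. At 6 h against control its log2 change was -0.32 (SE 0.22, limma adjusted p = 0.877), or -0.19 without control 3, -0.18 without 6 h replicate 2 and -0.05 without both. After the median-of-ratios scaling the 1 h and control libraries overlapped. Eif4ebp1, the gene for 4E-BP1 and a target of the stress factor ATF4, was about an order of magnitude higher, at 204, 153 and 140.1 FPKM in the control libraries, 180.2, 151 and 168 FPKM at 1 h and 139, 164 and 189.7 FPKM at 6 h, and its groups overlapped. The ratio of Eif4ebp1 to Eif4ebp2 was 12.2 to 17.6 at 1 h and 8.45 to 13.2 at 6 h, against 6.04 to 14.1 in control, so that all groups overlapped. The ratio of Eif4ebp2 to Eif4e was 0.252 to 0.347 at 1 h and 0.307 to 0.425 at 6 h. In the control libraries it was 0.353, 0.452 and 0.802, so that 6 h overlapped control.

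**Figure D3:**
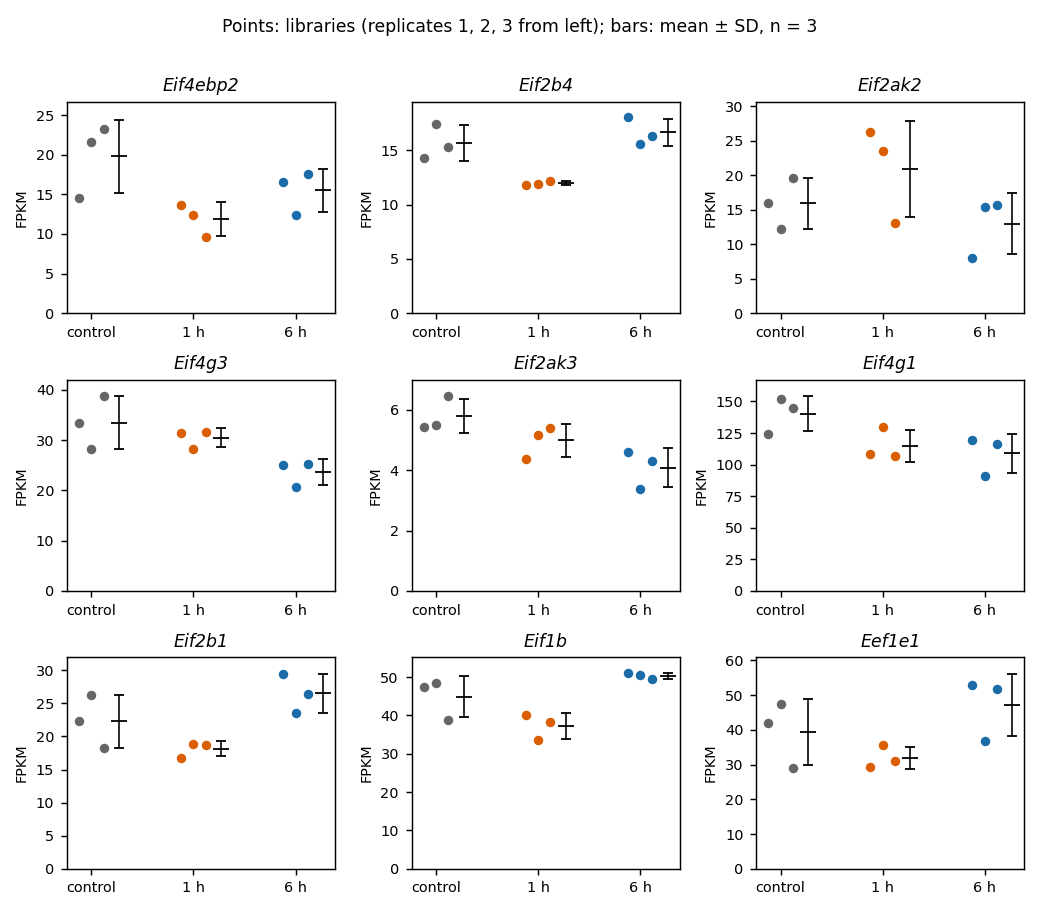
FPKM of 9 genes with an unadjusted p below 0.05 or a large estimated change, with 1 point per library in each group and the mean ± SD of 3 libraries beside them. Eif4ebp2 and Eif2b4 are lowest at 1 h, Eif4g3, Eif2ak3 and Eif4g1 are lower at 6 h than in control, Eif2b1, Eif1b and Eef1e1 are higher at 6 h than at 1 h, and Eif2ak2 overlaps between all groups.

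Eif5a, Eif5a2 and Eif6 stand between initiation and elongation. Eif5a encodes the hypusine-carrying factor that helps ribosomes past difficult peptide bonds, and was at 641, 803 and 394 FPKM in the control libraries, 504, 538 and 446 FPKM at 1 h and 573, 655 and 679 FPKM at 6 h. Control 3 was lowest and control 2 highest of all 9 libraries. Eif6, which keeps the ribosomal subunits apart, was at 91.7, 102 and 59.0 FPKM in the control libraries, 75.4, 65.4 and 64.8 FPKM at 1 h and 92.5, 80.9 and 95.5 FPKM at 6 h, with control 3 again the lowest. Both had all 6 h libraries above all 1 h libraries, and neither passed an unadjusted p of 0.05.

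The elongation factors were the most abundant role. Eef1a1 was at 3495, 4523 and 2901 FPKM in the control libraries, 4050.3, 4394 and 3453 FPKM at 1 h and 3308, 6027 and 4556 FPKM at 6 h. Eef2 (NCBI gene 13629, chr10:81176631-81182509, plus strand) was at 739, 815 and 593 FPKM in the control libraries, 798, 778 and 715 FPKM at 1 h and 689.6, 1170.5 and 804 FPKM at 6 h. In both genes the lowest library was control 3 and the highest 6 h replicate 2, and all groups overlapped. Their ratio was 4.73 to 5.66 in all 9 libraries, a spread smaller than that of either gene. The 6 genes tested had a median log2 change of 0.06 at 1 h, 0.30 at 6 h and 0.27 between 6 h and 1 h. The first was 0.24 with the median-of-ratios scaling, -0.03 after quantile normalization and -0.14 without control 3. The second was 0.11 without 6 h replicate 2, 0.13 without control 3 and -0.05 without both, with 1 gene above 0 and 5 below. The third was 0.14 with the scaling, 0.15 after quantile normalization and 0.07 without 6 h replicate 2, with 4 genes above 0 and 2 below. Eef1e1, whose product belongs to the aminoacyl-tRNA synthetase complex, was at 41.9, 47.3 and 28.9 FPKM in the control libraries, 29.3, 35.5 and 31.1 FPKM at 1 h and 52.8, 36.8 and 51.7 FPKM at 6 h. Every 6 h library was above every 1 h library, with a log2 change of 0.53 (SE 0.21, limma adjusted p = 0.383). Eef1d, the exchange factor subunit for eEF1A, had means of 112 ± 28.4 FPKM in control, 90.1 ± 1.70 at 1 h and 118 ± 15.4 at 6 h (SD, n = 3 each). The ratio of its partner Eef1b2 to it was 3.06 to 3.55 at 1 h, against 2.49 to 2.64 in control. At 6 h that ratio was 2.62 to 3.71, which overlapped control.

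The 3 genes for enzymes that act on elongation factors were at low levels and had lower means at 1 h than in control. Eef2k, the kinase that inactivates eEF2, was at 3.53, 3.64 and 4.65 FPKM in the control libraries, 2.92, 2.99 and 2.68 FPKM at 1 h and 3.49, 4.23 and 4.45 FPKM at 6 h. The 1 h libraries were the lowest 3, also after scaling, with a log2 change of 0.38 (SE 0.16, limma adjusted p = 0.399) between 6 h and 1 h. Eef1akmt1, a lysine methyltransferase of eEF1A, was at 22.7, 28.4 and 19.8 FPKM in the control libraries, 18.2, 17.5 and 16.4 FPKM at 1 h and 17.7, 25.4 and 30.7 FPKM at 6 h. All 1 h libraries were below all control libraries before scaling, with log2 changes of -0.41 (SE 0.21, limma adjusted p = 0.501) at 1 h and 0.45 (SE 0.21, limma adjusted p = 0.451) between 6 h and 1 h. Eef2kmt, a lysine methyltransferase of eEF2, was at 6.13, 7.26 and 4.25 FPKM in the control libraries, 5.69, 3.12 and 4.17 FPKM at 1 h and 5.29, 8.52 and 5.91 FPKM at 6 h. The groups overlapped, with log2 changes of -0.37 (SE 0.25, limma adjusted p = 0.561) at 1 h and 0.51 (SE 0.25, limma adjusted p = 0.468) between 6 h and 1 h, the second being 0.34 without 6 h replicate 2.

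Some members differed more between replicates of a group than between groups, a pattern seen in the values and described without a test. The highest library was 6 h replicate 2 and the lowest control 3 in 11 of 63 members (17.5%): Eef1a1, Eef1b2, Eef1g, Eef2, Eif2a, Eif3e, Eif3f, Eif3h, Eif3i, Eif3k and Eif3m. The same held for 3.66% of all genes tested and for 78 of 80 cytosolic ribosomal protein genes (97.5%). In 6 h replicate 2 the elongation factors had a median log2 difference of 0.56 from the mean of the other 6 h replicates, the ribosomal protein genes 0.63, and all genes -0.08. In control 3 the medians against the other controls were -0.57, -0.72 and 0.02. Other members went the other way: 12 (19.0%) were lowest in 6 h replicate 2, against 26.4% of all genes tested, among them Eif1a, Eif5, Eif3a, Eif3j1, Eif5a2 and the scaffold genes Eif4g1, Eif4g2 and Eif4g3. Control 3 was also the library with the highest Sertoli marker sum, and the part of this in the result was not tested. The macrophage marker sum was 207 FPKM in 6 h replicate 2 and 268 and 38.1 FPKM in 6 h replicates 1 and 3.

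**Figure D4:**
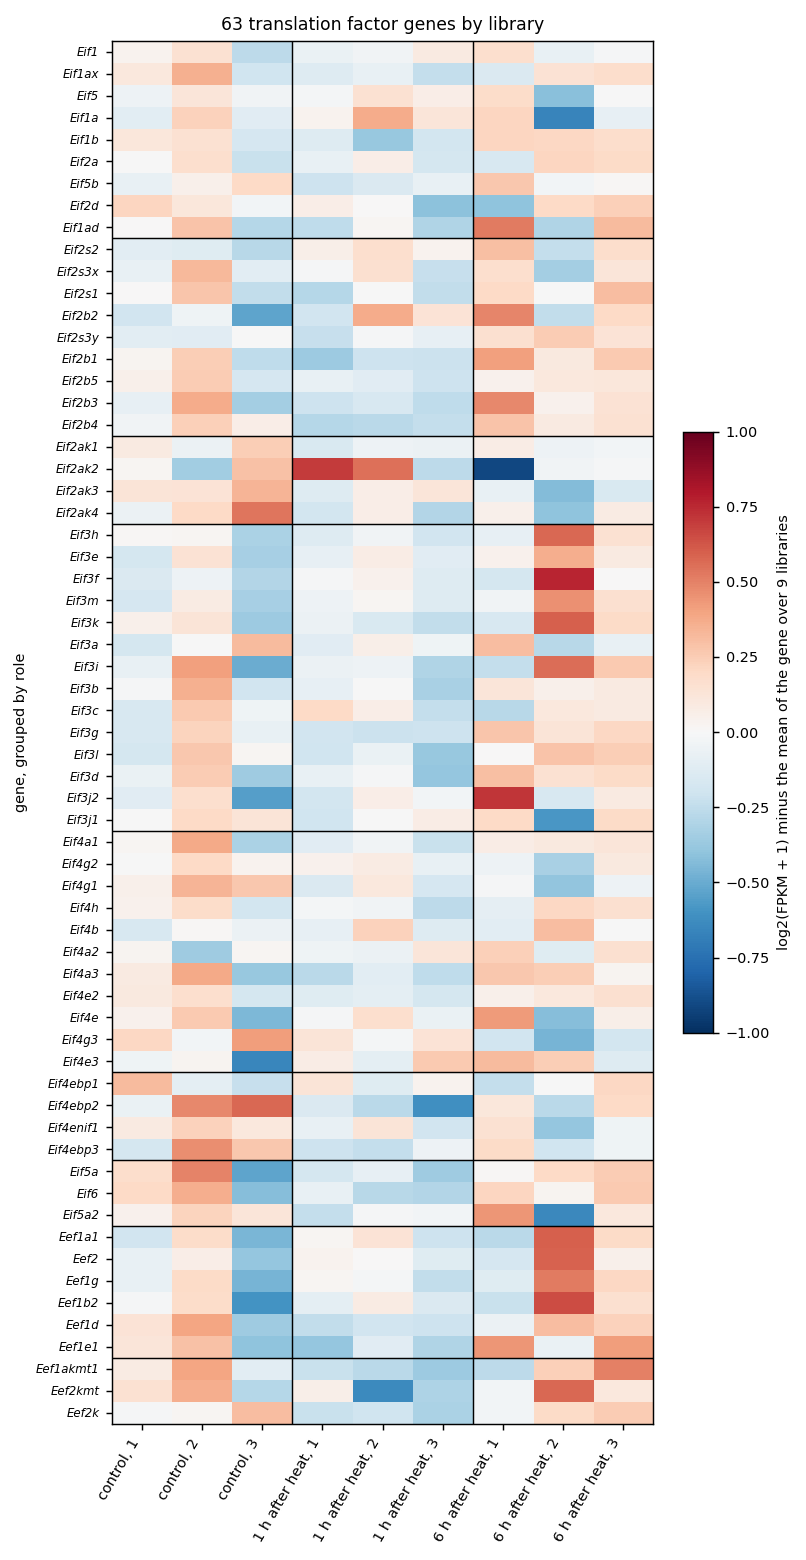
Log2(FPKM + 1) of 63 translation factor genes in each library minus the mean of the gene over 9 libraries, from blue (lower) to red (higher), with genes grouped by role and vertical lines between control, 1 h and 6 h. The elongation factors other than Eef1e1 and several eIF3 genes are red in 6 h replicate 2 and blue in control 3, while the eIF4G genes are blue in 6 h replicate 2.

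**Figure D5:**
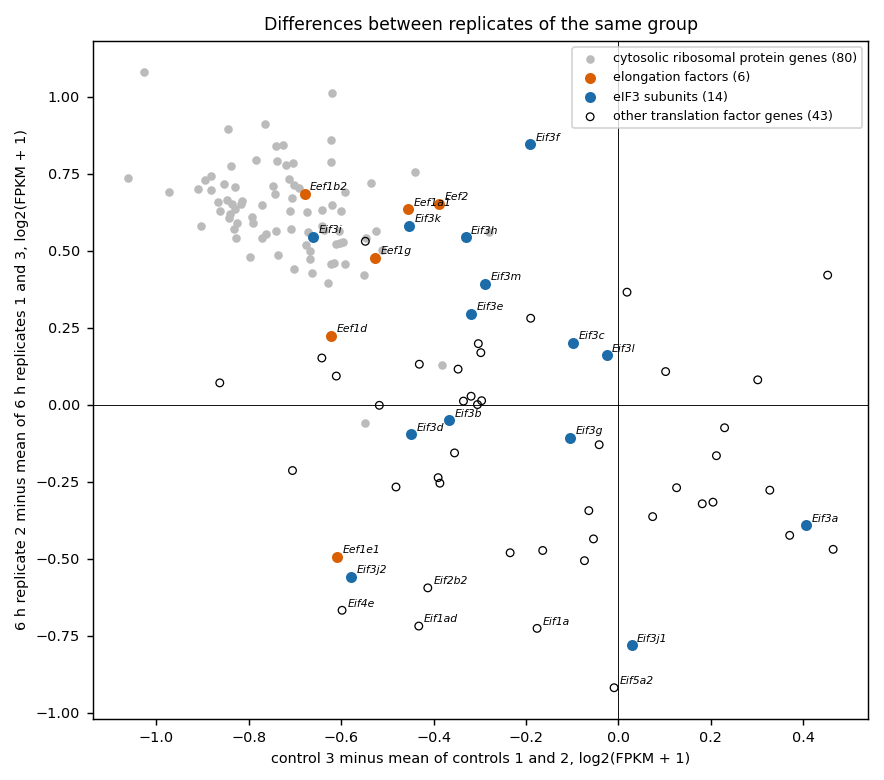
For each gene, the difference of control 3 from the mean of controls 1 and 2 (x axis) and of 6 h replicate 2 from the mean of 6 h replicates 1 and 3 (y axis), in log2(FPKM + 1), for 80 ribosomal protein genes (grey), 6 elongation factors (orange), 14 eIF3 subunits (blue) and 43 other translation factor genes (open). Of the elongation factors, 5 lie above 0 on the y axis with all 6 left of 0 on the x axis, near the ribosomal protein genes, and Eef1e1 lies below.

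The sequence around the annotated transcription start was read for members, because a pyrimidine run at the start is the known shared feature of ribosomal protein and elongation factor mRNAs. RefSeq starts (GRCm38.p6) were read for 50 of the 65 genes. Eif1a, Eif3j2 and Eif4ebp3 were left out by choice for the chromosome they lie on, whether or not a start was listed. For the other genes without a window no usable start was found. Shown are 30 bases before and 20 bases from the start, 5′ to 3′ on the strand of the gene, with the longest unbroken run of C and T in capitals. The first 3 genes were highest in 6 h replicate 2 and lowest in control 3, the next 2 were lowest in 6 h replicate 2, and the last 2 carry long runs without either pattern or with the opposite one.
Eif3f: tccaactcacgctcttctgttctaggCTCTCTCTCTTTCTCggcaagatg
Eef1a1: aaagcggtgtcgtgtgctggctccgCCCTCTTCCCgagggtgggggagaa
Eef2: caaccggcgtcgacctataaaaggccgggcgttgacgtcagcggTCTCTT
Eif3j1: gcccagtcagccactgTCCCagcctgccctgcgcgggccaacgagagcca
Eif5: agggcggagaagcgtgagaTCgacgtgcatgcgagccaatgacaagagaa
Eif2s3x: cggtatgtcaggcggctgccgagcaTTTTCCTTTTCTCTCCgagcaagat
Eif4e: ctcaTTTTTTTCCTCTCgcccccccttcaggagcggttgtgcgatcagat
The windows lie at chr7:108934385-108934434, plus strand for Eif3f, chr9:78481705-78481754, minus strand for Eef1a1, chr10:81176601-81176650, plus strand for Eef2, chr2:122028550-122028599, plus strand for Eif3j1, chr12:111538071-111538120, plus strand for Eif5, chrX:94212632-94212681, minus strand for Eif2s3x and chr3:138527238-138527287, plus strand for Eif4e, of whose 2 listed starts the second is shown. Eif3f and Eef1a1 hold runs of 15 and 10 bases that cross the start, and that of Eef2 lies downstream of it and reaches the end of the window after 6 bases, so its full length is not shown. Eif3j1 and Eif5 hold runs of 4 and 2 bases. The windows shown are examples. Eef1b2, Eif2a, Eif3k and Eif3m, not shown, had the pattern of the first 3 genes and hold runs of 4, 4, 7 and 11 bases. Of the genes lowest in 6 h replicate 2 and not shown, Eif2ak4 and Eif4enif1 hold longest runs of 9 and 10 bases. Eif2ak3, Eif3a, Eif4g1, Eif4g3 and Eif5a2 hold 5, 6, 7, 4 and 3. Eif2s3x, lowest in 6 h replicate 2, holds a run of 16 bases that crosses the start, so the run and the library pattern did not go together there. A run of at least 10 bases was present in 11 of 50 members (22%), against 11.1% of the 27025 genes in the table, and one of at least 8 in 26% against 22.9%. Genes on the chromosome left out for members were kept among the 27025, so the shares were not filtered alike. Of the 7 members with the shared library pattern and a listed start, 3 held a run of at least 10 (Eef1a1, Eif3f and Eif3m), as did 8 of the other 43. Runs were counted anywhere in the window, also where they end before the start. That was so for Eif3m, with 11 bases from position -20, and for the Eif4e start shown, with 13 bases from -26. The search used the transcribed strand only and the longest run among a gene's listed starts, and a run is a description of the letters, not a site.

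Several of these genes have near copies in the genome, and how the table divides reads among them is not recorded. Of the 50-base windows of their annotated transcripts (GENCODE M21), 91.8% of those of Eif3j2 and 54.8% of those of Eif3j1 also occur in transcripts of other genes, mostly in each other. For Eif4ebp3 the share was 65.5%, with 1 other gene. The shares were 65.3% for Eif4a1, 64.3% for Eef1g, 53.6% for Eef1a1, 37.1% for Eif3m and 35.4% for Eif2s3x. Whether the other genes were pseudogenes was not recorded. The share was 0 for 21 of the 65 genes. The levels of the genes with high shares are uncertain for that reason, and the split between Eif3j1 and Eif3j2 most of all.

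In the authors' deposited table, made with DEGseq, a q-value of at most 0.001 with at least a 2-fold change was reached at 1 h by 1 member, Eef1a2, which was higher (3.51% of all genes), and by 0 that were lower (4.33% of all genes). That gene had a log2 fold change of 1.13 and a q of 4.43e-05 in the authors' deposited table, at levels below 1 FPKM in every library. At 6 h against control and at 6 h against 1 h, 0 members reached it in the authors' deposited table, against 3.01% higher and 3.44% lower, and 2.48% higher and 2.02% lower, of all genes. At any fold, q was at most 0.001 in the authors' deposited table for 15 members higher and 40 lower at 1 h (11.2% and 44.0% of all genes), 35 and 13 at 6 h (15.5% and 28.6%), and 41 and 7 between 6 h and 1 h (33.5% and 15.2%). Those q-values differ from the limma adjusted p above, which used the spread between the 3 replicates.

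Genes that work beside these factors were not called either. Of 54 tested genes of termination, poly(A) binding, initiation signalling, selenocysteine insertion, hypusine and diphthamide synthesis and mitochondrial translation, 0 were called in any comparison, with median log2 changes of -0.17 at 1 h, -0.01 at 6 h and 0.15 between 6 h and 1 h, against -0.17, -0.06 and 0.09 for all genes. Before adjustment, at a p under 0.05, 2 were higher and 3 lower at 1 h (2.76% and 8.05% of all genes), 2 higher and 1 lower at 6 h (1.27% and 3.35%), and 9 higher and 4 lower between 6 h and 1 h (8.45% and 3.19%). The 4 with the largest log2 change in any comparison are given, picked by these values. Ppp1r15b, which encodes the constitutive regulator that dephosphorylates eIF2α, was at 24.9, 23.7 and 19.3 FPKM in the control libraries, 38.6, 44.3 and 48.8 FPKM at 1 h and 30.4, 9.69 and 18.3 FPKM at 6 h. All 1 h libraries were above all others, with log2 changes of 0.93 (SE 0.33, limma adjusted p = 0.418) at 1 h and -1.26 (SE 0.33, limma adjusted p = 0.189) between 6 h and 1 h. Dph5, an enzyme of the diphthamide residue of eEF2, was at 8.31, 9.93 and 6.09 FPKM in the control libraries, 9.34, 8.33 and 7.06 FPKM at 1 h and 14.2, 25.4 and 23.3 FPKM at 6 h. All 6 h libraries were above the others, with log2 changes of 1.25 (SE 0.24, limma adjusted p = 0.877) at 6 h against control and 1.22 (SE 0.24, limma adjusted p = 0.0916) against 1 h. Dph1, which acts in the first step of that pathway, was at 6.84, 7.84 and 7.13 FPKM in the control libraries, 4.65, 4.47 and 4.34 FPKM at 1 h and 10.7, 7.25 and 8.51 FPKM at 6 h, and the 1 h libraries were the lowest 3, with log2 changes of -0.59 (SE 0.16, limma adjusted p = 0.305) at 1 h and 0.83 (SE 0.16, limma adjusted p = 0.0869) between 6 h and 1 h. Ppp1r15a, the stress-induced counterpart of Ppp1r15b, was at 64.3, 78.5 and 25.4 FPKM in the control libraries, 87.8, 93.8 and 87.7 FPKM at 1 h and 57.0, 35.0 and 35.1 FPKM at 6 h. All 1 h libraries were above all others and control 3 was the lowest, with log2 changes of 0.82 (SE 0.37, limma adjusted p = 0.474) at 1 h, or 0.33 without control 3, and -1.10 (SE 0.37, limma adjusted p = 0.31) between 6 h and 1 h. Leaving out 6 h replicate 1 took Dph5 past the threshold, with log2 changes of 1.496 (limma adjusted p = 0.038) at 6 h against control and 1.46 (limma adjusted p = 0.0175) against 1 h, and likewise Ppp1r15b between 6 h and 1 h, at -1.64 (limma adjusted p = 0.0231). For the 4 genes no other alternative gave an adjusted p below 0.05.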

How the data were processed

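RNA of 9 libraries, 3 per group, was measured. TRNzol was used for the total RNA and a standard BGI procedure for the libraries, per the labels' protocols. For read length and strand: not given in the sources used here. Per the file headers the deposited values are FPKM, written to 2 decimals, and the authors' log2 fold changes, p-values and q-values come from DEGseq. RSEM 1.2.12, Bowtie2 2.2.5, HISAT2 2.0.4 and the mm10 build are listed, per the submitters' processing notes, with no step given for any. Of 20717 genes listed, 3158 had no values.

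From the FPKM, limma 3.58.1 in R 4.3.3 was fitted on log2(FPKM + 1) with a variance trend, all 9 libraries and 3 group means, for the 11460 genes that reached 1 FPKM in 3 or more libraries. A log2 change on this scale understates the change of low genes. Tests were two-sided with Benjamini-Hochberg adjustment over all these genes, called below 0.05, and the script was tested on simulated data. The design allowed for RPKM or counts, and the table holds FPKM, for which the log-scale test was used. Alternatives were a pseudocount of 0.1, no filter, a filter at 5 FPKM, median-of-ratios scaling, quantile normalization, the 2 groups alone, no trend, a replicate block and each library left out.

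The members and the other gene lists were chosen with earlier results of these data known, so no p-value was adjusted over a list and no set test was run. Library values are given for the 4 members with the largest change in each direction per comparison, the highest of each role and a list of 19 central genes, and other members with library values or group means were named after their values were seen. Of the neighbouring genes the 4 with the largest change in any comparison are given. Ratios of more gene pairs were computed than are given. Replicate numbers come from the titles. Deviations of same-numbered libraries from their group means correlated at 0.19, 0.15 and 0.26 between control and 1 h. Between control and 6 h they correlated at -0.18, 0.04 and 0.01, and between 1 h and 6 h at -0.27, -0.10 and -0.35. The labels give no pairing. No correlation was computed between differently numbered libraries, so these values have nothing to be set against. The fit described above used no pairing. The replicate block, an alternative only, paired libraries by number in all 3 comparisons.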

Additional observations from a re-analysis of the deposited data

How the results depend on the processing

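In none of the alternatives was a member called, in any comparison, and the log2 changes printed for single members and for the 4 neighbouring genes kept their sign. Role medians were computed only with the 2 scalings (median of ratios and quantile) and without control 3, 6 h replicate 2 or both. Among those printed, 3 roles changed sign in these settings, as given above. These were the eIF3 genes at 1 h, the cap-binding and unwinding factors at 6 h, and the elongation factors at 1 h and 6 h. Without 6 h replicate 1, Dph5 and Ppp1r15b, which are not members, passed the threshold. With the replicate block, the pairing of libraries by number, 0 members were higher and 0 lower in each comparison, the medians were -0.15, 0.10 and 0.22, and the adjusted p of Eif4ebp2 at 1 h was 0.513. Of all genes 15 higher and 0 lower were called at 1 h, 0 and 0 at 6 h, and 0 higher and 23 lower between 6 h and 1 h under the block. The members' median log2 change ranged over all alternatives from -0.20 (without control 3) to 0.03 (median-of-ratios scaling) at 1 h, from -0.02 (without control 3) to 0.20 (without control 2) at 6 h, and from 0.10 (median-of-ratios scaling) to 0.27 (without 6 h replicate 1) between 6 h and 1 h. Leaving out control 3 and 6 h replicate 2 together was added after the data were seen. With 3 libraries a group and FPKM in place of counts, the half-width of the 95% interval of a member's log2 change was 0.274 to 0.720, with a median of 0.419.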
